A study of Drosophila melanogaster with 6 samples.

Results

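The members described here are 80 probe sets, of 13966 without control probe sets on the array, whose signal was low on the first of 3 RasV12 arrays of Drosophila melanogaster eye-antennal discs. They were selected among the 8385 probe sets with a mean signal of at least 23.4 over the 6 arrays, as those with log2(signal + 16) on RasV12 replicate 1 at least 1 below the mean of RasV12 replicates 2 and 3. In all, 89 probe sets passed that margin, 1.06% of the 8385, and the rule set aside 9 of them. These 9 belong to the genes Blimp-1, E23, Hr3, ImpE1, ImpE3, Spn100A and br. The 80 members include 73 with 1 gene symbol, which name 70 genes, 1 with several symbols and 6 with none. A further 13 probe sets passed the margin below the signal minimum and are not members. The members were thus chosen by their RasV12 signals, so the gap between replicate 1 and the others is described with no test.

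Both genotypes carried GMR-Gal4, which drives transgenes in the eye field once the morphogenetic furrow, a wave of differentiation that crosses the disc, has passed. The RasV12 discs were GMR Gal4/UAS RasV12 and expressed Ras locked in its active state, and the sSpi discs were GMR Gal4/+; UAS sSpi/+ and made a secreted form of the EGF receptor ligand Spitz. Each of the 3 arrays per genotype held RNA of 100 whole eye-antennal discs from wandering 3rd instar larvae raised at 25 °C, so cells in which the driver is silent were included, and 5 ug of total RNA went into each labelling. Replicates are biological according to the titles. One free-text field of the sSpi samples mentions RasV12 where the title and genotype give sSpi, and the title was followed. Discs lacking both transgenes were not analysed here. The labels do not give the sex of the larvae.

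Wandering is the stage at which a pulse of the steroid hormone ecdysone sets off a cascade of nuclear receptors and other transcription factors, and the discs then begin to form the pupal body. In the same discs, photoreceptors behind the furrow send axons to the brain, and cell-surface proteins of the immunoglobulin and leucine-rich repeat families take part in how neurons recognise each other. Members come from both of these fields and from several others, and the rule used neither function nor pathway.

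RasV12 replicate 1 had the most probe sets at least 1 below the other arrays of its genotype. These 89 are the 80 members and the 9 set aside, so the count is not separate from the choice of members. At least 1 above were 24 probe sets, within the 9 to 26 of the other arrays. RasV12 replicate 2 had 17 below and 9 above, and RasV12 replicate 3 had 10 below and 22 above. On the sSpi arrays the counts were 30 below and 15 above for replicate 1, 15 and 26 for replicate 2, and 38 and 16 for replicate 3. For 18S ribosomal RNA, the middle control probe set had a signal of 157 on RasV12 replicate 1, against 24.7 to 30.4 on the other 5 arrays, and its 3' probe set had 118, against 4.64 to 24.5. The 3' to 5' ratio of the actin control was 1.28 on that array and 1.12 to 1.21 on the others, while the ratio of the Gapdh control was 2.83 there and 2.99 to 3.26 on the others. That of the eIF-4a control, 1.63, lay within the range of the others, 1.47 to 1.64. What part these features of the array play in the members' levels was not tested. In whole discs, fewer cells of a type and less RNA per cell cannot be told apart.

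**Figure D1:**
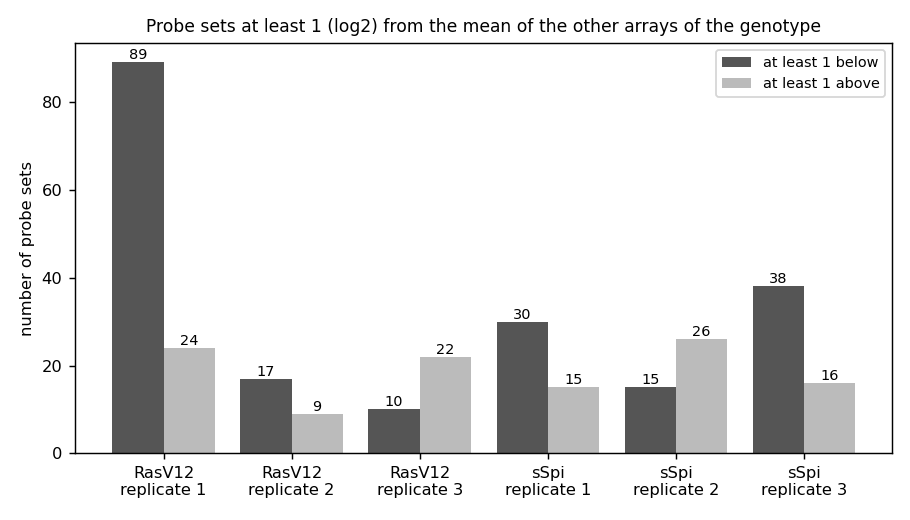
Number of probe sets (y axis) at least 1 (log2) below, dark bars, or above, light bars, the mean of the other arrays of the same genotype, for each of the 6 arrays (x axis). RasV12 replicate 1 has 89 probe sets below, and sSpi replicate 3 comes next with 38.

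Low probe sets on RasV12 replicate 1 were not spread evenly over signal strength. Members had a median mean signal of 60.4, against 105 over all 8385 probe sets, and ran from 23.8 to 818. They made up 1.70% of the 1943 probe sets with a mean signal under 50, 1.19% of the 2104 between 50 and 100, 0.660% of the 2121 between 100 and 200, 0.405% of the 1480 between 200 and 500, and 0.271% of the 737 above that. Below a mean signal of 50, RasV12 replicate 1 had 35 low probe sets, and the other arrays had between 5 and 16. In the range from 100 to 200 it had 18, and the others had between 0 and 8. From 200 to 500 it had 7, as did sSpi replicate 3, and from 500 up it had 2, against 3 on sSpi replicate 3.

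**Figure D2:**
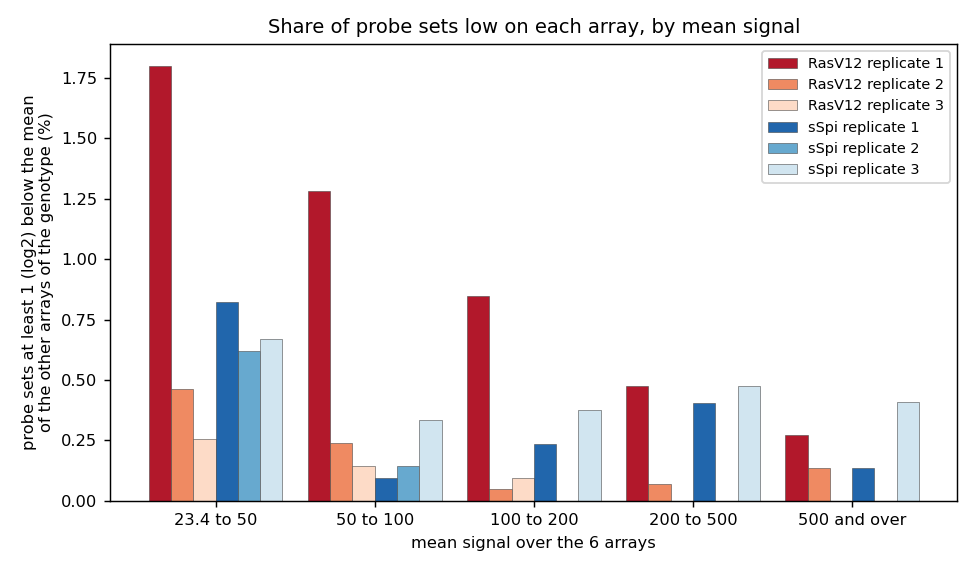
Percentage of probe sets at least 1 (log2) below the mean of the other arrays of the genotype (y axis), by mean signal over the 6 arrays (x axis), with 1 bar per array. RasV12 replicate 1 has the tallest bar up to a mean signal of 200, and its share falls to 0.473% and 0.271% in the last groups.

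The median signal over the members was 16.8, 66.6 and 79.6 on RasV12 replicates 1, 2 and 3, and 65.1, 64.6 and 48.8 on sSpi replicates 1, 2 and 3. The sSpi arrays therefore lay near RasV12 replicates 2 and 3 as a whole, with sSpi replicate 3 the lowest of them. Over all 8385 probe sets the medians of the 6 arrays lay between 101 and 105. The median gap of the members was -1.20 on the log2(signal + 16) scale, which is a 2.3-fold lower value of signal + 16 and understates the fold of the signal itself in dim probe sets, with a range from -1.88 to -1.0. In 17 members the gap was 1.5 or more, in 0 it reached 2, and 62 were at least 1 below both replicate 2 and replicate 3. On RasV12 replicate 1, 38 of the 80 members had a signal of 16 or less, the size of the pseudocount, as did 1.38% of all probe sets. For these the gap is limited by the pseudocount.

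The members just inside the margin were probe sets of side (gap -1.0033), CG3257 (-1.0164) and RhoL (-1.0189). Just outside it lay a second probe set of Dscam2 (-0.9861), Sb (-0.9839) and ovo (-0.9833).

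Set against the sSpi arrays, 68 of the 80 members had all 3 sSpi arrays above RasV12 replicate 1 (85.0%), as did 30.3% of all probe sets past the filter. Members were picked for a low value on that array, so a high count follows from the choice and is given as a description. The median difference of the sSpi mean minus RasV12 replicate 1 was 0.98 over the members and -0.02 over all probe sets. The sSpi mean was below the mean of RasV12 replicates 2 and 3 in 58 members (72.5%), against 47.4% of all, and the median difference, sSpi minus RasV12, was -0.27 over the members and 0.01 over all. The choice of members by high values on those arrays bears on this count as well. In 3 members (3.75%) the sSpi mean was below RasV12 replicate 1 itself, against 53.0% of all.

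By the position of the sSpi mean between the low and the high RasV12 arrays, the members fell into 4 ranges. The sSpi mean was below RasV12 replicate 1 in 3, nearer to replicate 1 than to replicates 2 and 3 in 19, nearer to replicates 2 and 3 in 36, and above those in 22. The ranges are divisions of a continuous measure and not kinds of gene.

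**Figure D3:**
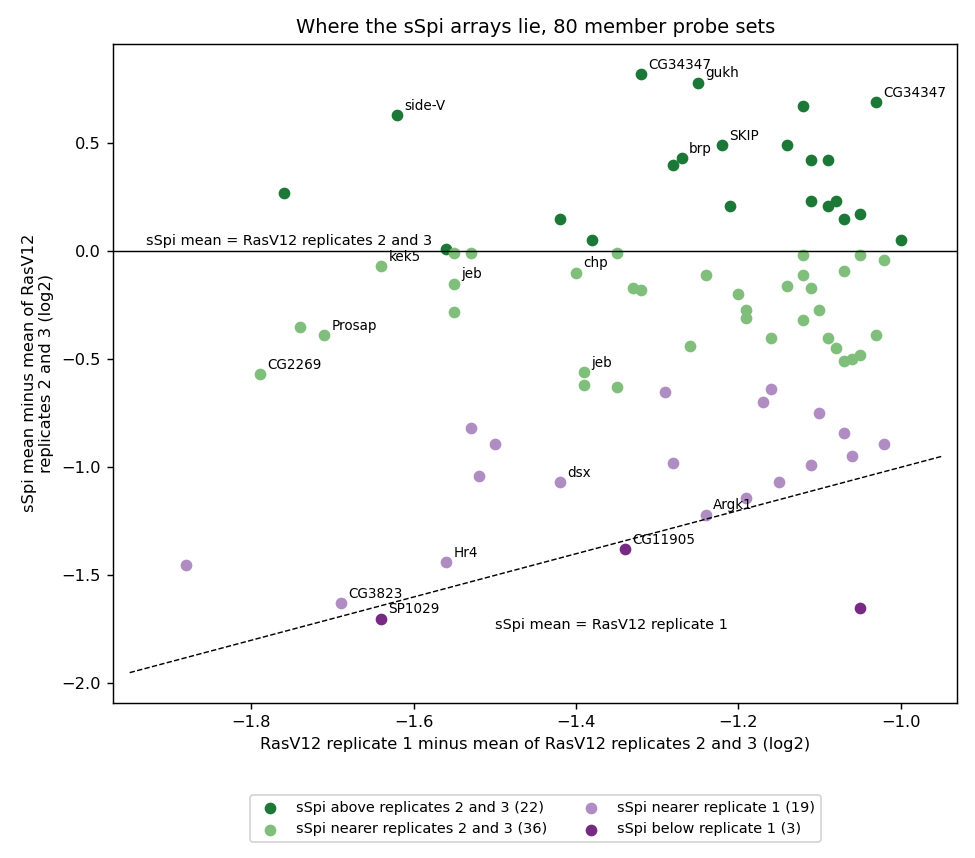
Gap of RasV12 replicate 1 to RasV12 replicates 2 and 3 (x axis, log2) against the difference of the sSpi mean and RasV12 replicates 2 and 3 (y axis, log2), 1 point per member. The solid line marks an sSpi mean equal to RasV12 replicates 2 and 3 and the dashed line one equal to replicate 1; 58 points lie below the solid line and 3 below the dashed line.

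The members Prosap, kek5, chp and brp encode proteins of synapses or of the cell surface. The probe set of Prosap, the fly Shank scaffold of the postsynaptic density, had signals of 7.17, 68.2 and 51.9 on the RasV12 arrays and 40.2, 40.9 and 44.5 on the sSpi arrays. The 3 sSpi values lay close together, below the high RasV12 pair and far above replicate 1. For kek5, a Kekkon transmembrane protein with leucine-rich repeats and an immunoglobulin domain, the RasV12 signals were 44.7, 166 and 179 and the sSpi signals 156, 169 and 165. Here 5 of the 6 arrays lay within 156 to 179, and RasV12 replicate 1 was the exception. The chaoptin gene chp, which encodes an adhesion protein of photoreceptor membranes, had 69.6, 199 and 221 in RasV12 and 232, 186 and 171 in sSpi discs, again with 1 low array of 6. The active zone gene brp had 3.31, 31.6 and 29.7 in RasV12 and 44.3, 49.9 and 46.0 in sSpi discs, so that all sSpi arrays were above all RasV12 arrays.

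Sidestep is an immunoglobulin protein that guides motor axons. Of the 20 probe sets of its family, 12 passed the filter and 4 are members, against 80 members among all 8385 past the filter. The family was taken up after members were seen in it, so the count is a description. The member of side-V had signals of 14.1, 72.8 and 81.0 on the RasV12 arrays and 143, 116 and 125 on the sSpi arrays, and a second side-V probe set had 70.0, 118 and 123 in RasV12 and 217, 211 and 206 in sSpi discs. Both side-V probe sets past the filter were lower on every RasV12 array than on any sSpi array, and in both RasV12 replicate 1 was the lowest. The member of side-IV had 8.03, 43.4 and 50.9 in RasV12 and 16.1, 30.9 and 29.4 in sSpi discs, with sSpi between the low and the high RasV12 arrays. For side itself, 2 probe sets are members, at 9.84, 39.9 and 37.7 and at 5.02, 20.1 and 33.1 in RasV12, while another probe set of the gene had 41.6, 42.0 and 40.4 on the same arrays. Of the 12 probe sets of the family past the filter, 8 are not members, and their gaps ran from -0.67 to 0.33.

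Other receptors and ligands of the nervous system showed mixed sSpi levels. Jelly belly (jeb), the secreted ligand of the receptor tyrosine kinase Alk, has 2 member probe sets. The brighter one had 31.4, 119 and 127 in RasV12 and 131, 159 and 60.5 in sSpi discs, and the dimmer one 5.41, 42.3 and 37.8 in RasV12 and 22.3, 33.4 and 13.3 in sSpi discs. In both, sSpi replicate 3 was the lowest sSpi array. Dscam2, an immunoglobulin protein of axon tiling, had 5.66, 39.5 and 51.3 in RasV12 and 21.3, 16.2 and 14.1 in sSpi discs, so its sSpi level was nearer to RasV12 replicate 1. The second Dscam2 probe set, just outside the margin, had 43.0, 106 and 96.1 in RasV12 and 43.8, 55.3 and 56.8 in sSpi discs, again with RasV12 replicate 1 the lowest and the sSpi arrays below RasV12 replicates 2 and 3.

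**Figure D4:**
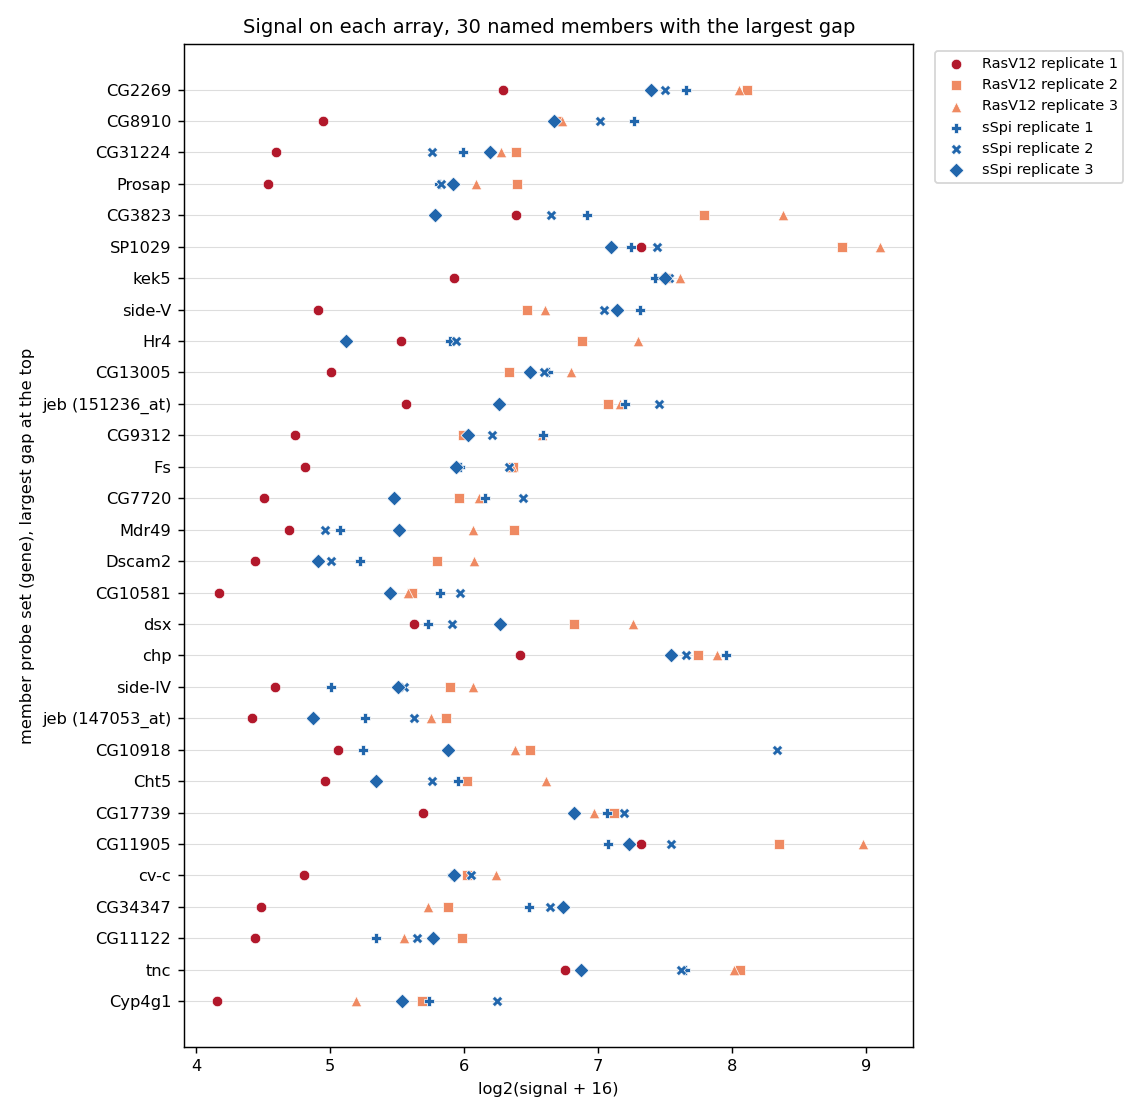
Signal of the 30 named members with the largest gap (y axis) on each array, as log2(signal + 16) (x axis), with RasV12 replicate 1 in dark red, RasV12 replicates 2 and 3 in orange and the sSpi arrays in blue. The blue points lie near the orange ones for genes such as kek5 and chp, near the dark red one for SP1029, Hr4 and CG11905, and to the right of the orange ones for side-V.

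A different placement was seen for 2 nuclear receptors of the ecdysone cascade and for the insulin-binding protein gene ImpL2, all of which are ecdysone-responsive. Hr4 had 30.2, 102 and 141 on the RasV12 arrays and 43.4, 45.4 and 18.7 on the sSpi arrays. Eip78C had 35.1, 91.2 and 108 in RasV12 and 64.5, 69.8 and 35.1 in sSpi discs, and ImpL2 had 424, 866 and 940 in RasV12 and 589, 524 and 316 in sSpi discs. In all 3 genes the sSpi mean was nearer to RasV12 replicate 1, sSpi replicate 3 was the lowest sSpi array, and RasV12 replicates 2 and 3 were above every sSpi array. These traits are not particular to the 3 genes. Of the 19 members with the sSpi mean nearer to replicate 1, all 19 had RasV12 replicates 2 and 3 above every sSpi array. In 13 of the 19, sSpi replicate 3 was the lowest sSpi array. These 3 are the members among 17 genes past the filter in the list of ecdysone response genes outside those set aside, whose median gap was -0.29, against 0.03 over all probe sets. The summed signal of that list was 2550, 3421 and 3726 on the RasV12 arrays and 3056, 2817 and 2475 on the sSpi arrays. In the 9 probe sets set aside the gaps ran from -3.05 to -1.0, the sSpi mean was nearer to or below RasV12 replicate 1 in 5, and sSpi replicate 3 was the lowest sSpi array in 6.

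Genes with sSpi levels at or near the low array also included enzymes and uncharacterised genes. SP1029, which encodes an aminopeptidase, had 144, 437 and 535 in RasV12 and 136, 158 and 121 in sSpi discs. CG11905 had 144, 310 and 488 in RasV12 and 119, 171 and 134 in sSpi discs, and CG3823 had 67.9, 205 and 317 in RasV12 and 105, 84.1 and 39.1 in sSpi discs. In these 3 genes RasV12 replicate 1 lay within the range of the sSpi arrays and RasV12 replicates 2 and 3 lay above it. A member of Argk1, the arginine kinase gene, had 13.8, 61.0 and 48.3 in RasV12 and 18.5, 13.9 and 10.9 in sSpi discs, whereas the bright probe set of the same gene had 1740, 1930 and 2180 in RasV12 and 1980, 1850 and 1770 in sSpi discs. For CG15544, CG1273 and Mdr49, an ABC transporter gene, the sSpi mean minus RasV12 replicate 1 was 0.05, 0.08 and 0.49 (log2), and for Mdr49 every sSpi array was above RasV12 replicate 1. The unnamed probe set with the largest gap of all, 154421_at, had 151, 591 and 604 in RasV12 and 189, 246 and 193 in sSpi discs.

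The members include 2 genes of the sex determination pathway. Sxl, the RNA-binding switch gene of that pathway, had 150, 306 and 364 on the RasV12 arrays and 464, 359 and 369 on the sSpi arrays, and its second probe set had 307, 556 and 632 in RasV12 and 675, 583 and 563 in sSpi discs. Both Sxl probe sets thus had RasV12 replicate 1 as the lowest of 6 arrays. The transcription factor gene dsx had 33.3, 97.2 and 137 in RasV12 and 37.1, 44.0 and 61.2 in sSpi discs, a different order, with the sSpi arrays near RasV12 replicate 1. The signal of msl-2, a dosage compensation gene whose translation Sxl represses and no member, was 66.4, 37.9 and 29.0 in RasV12 and 79.1, 60.8 and 64.6 in sSpi discs. Whether the larvae of the samples differed in sex was not tested.

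The members with the highest sSpi means relative to RasV12 replicates 2 and 3 are given next by array. They were picked by that difference, so a lack of overlap between the genotypes is a description. The share of all probe sets without overlap was not counted, here or for brp and side-V. The member of gukh, whose product binds the scaffold protein Discs large, had 6.97, 35.9 and 41.6 in RasV12 and 74.7, 79.6 and 80.4 in sSpi discs. Of 2 member probe sets of CG34347, one had 6.35, 42.9 and 37.2 in RasV12 and 73.7, 83.8 and 90.6 in sSpi discs, and the other 36.7, 84.5 and 99.5 in RasV12 and 194, 151 and 135 in sSpi discs. For the gukh member and both CG34347 members the RasV12 and sSpi arrays did not overlap. Other CG34347 probe sets past the filter did overlap. The dimmer had 14.1, 31.2 and 35.7 in RasV12 and 29.1, 42.3 and 40.7 in sSpi discs. The brightest had 3090, 3840 and 3770 in RasV12 and 3780, 3830 and 3900 in sSpi discs. A member of SKIP, a gene named for a protein that interacts with the Shal potassium channel, had 43.3, 114 and 130 in RasV12 and 211, 181 and 145 in sSpi discs, also without overlap. The other SKIP probe sets past the filter had gaps from -0.37 to -0.09. Among those only the dimmest overlapped, with 45.0, 46.7 and 75.2 in RasV12 and 89.8, 83.4 and 49.7 in sSpi discs. Larp4B, of a family of RNA-binding proteins, had 17.0, 50.7 and 63.6 in RasV12 and 73.1, 75.8 and 115 in sSpi discs, and frm had 156, 354 and 346 in RasV12 and 607, 547 and 318 in sSpi discs. For frm sSpi replicate 3 lay below RasV12 replicates 2 and 3, so the arrays of the genotypes overlapped.

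Among the genes of cuticle, matrix and cell shape, tnc, which encodes the extracellular matrix protein Tenectin, had 91.6, 250 and 243 in RasV12 and 185, 181 and 101 in sSpi discs. The chitinase gene Cht5 had 15.2, 48.8 and 81.6 in RasV12 and 46.0, 38.1 and 24.5 in sSpi discs. In both, sSpi replicate 3 came nearest to RasV12 replicate 1. The gene cv-c had 11.9, 49.1 and 59.6 in RasV12 and 44.1, 50.2 and 44.8 in sSpi discs, and Fs, the follistatin that binds activin-type ligands, had 12.1, 66.5 and 65.8 in RasV12 and 46.8, 64.7 and 45.4 in sSpi discs. Cyp4g1, a cytochrome P450 of cuticular hydrocarbon synthesis, had 1.84, 35.4 and 20.5 in RasV12 and 37.4, 59.9 and 30.5 in sSpi discs. For cv-c, Fs and Cyp4g1, RasV12 replicate 1 was the lowest array and all sSpi arrays lay near RasV12 replicates 2 and 3 or above them.

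The remaining members with a gap among the 30 largest carry only CG numbers as names. CG2269 had 62.3, 261 and 249 in RasV12 and 186, 165 and 152 in sSpi discs, and CG8910 had 14.9, 87.6 and 90.2 in RasV12 and 138, 113 and 85.9 in sSpi discs. In both, every sSpi array was far above RasV12 replicate 1. CG31224, CG13005, CG9312, CG7720, CG10581, CG17739 and CG11122 had gaps from -1.74 to -1.32, and their sSpi means were 1.14 to 1.57 (log2) above RasV12 replicate 1.

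The other named members had gaps from -1.26 to -1.02. They include tutl, an immunoglobulin protein gene, drl, which encodes a Ryk family receptor, Exn and GEFmeso, which encode guanine nucleotide exchange factors, Trpm, a cation channel gene, NijB, a ninjurin, syd, a kinesin adaptor gene, and RhoL, a GTPase gene. Others are Tps1 of trehalose synthesis, the iron-regulatory gene Irp-1B, the deiodinase gene Iyd, the male-specific transcript Mst84Dd, the co-repressor gene nvy, Pgant9, Ten-a, nebu, CHKov1, CG4872, CG5065, CG8170, CG7582, CG9175, CG33144, CG5773 and CG1504. The sSpi mean was nearer to RasV12 replicate 1 for RhoL, nvy, Pgant9, nebu and CG5065, and nearer to or above RasV12 replicates 2 and 3 for the others of these genes. Of the unnamed members, 151276_f_at was the brightest, with 504, 1100 and 1030 in RasV12 and 727, 671 and 880 in sSpi discs, and its sSpi arrays lay between replicate 1 and the other RasV12 arrays. The unnamed 145571_at, 145091_at, 152012_at and 148741_at had gaps from -1.53 to -1.12.

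The sSpi arrays themselves differed more over the members than over all probe sets. Their range was 0.45 (log2) at the median over the members and 0.25 over all probe sets, and 5 members (6.25%) spanned at least 1, against 1.74% of all. These 5 were CG10918, Np, jeb, CG3823 and the unnamed 145571_at. Members were dimmer, with a median mean signal of 60.4 against 105, and the comparison was not matched for signal. What part signal strength plays in it was not tested. CG10918 had 22.0, 307 and 42.9 on the sSpi arrays, and the summed signal of 10 salivary glue genes was likewise high on sSpi replicate 2, at 1693, against 223 to 309 on the RasV12 arrays and 164 and 199 on the other sSpi arrays. What part salivary gland tissue plays in CG10918 was not tested. Np, a transmembrane serine protease gene, had 115, 36.5 and 54.1, with sSpi replicate 1 the highest. Narrower ranges, from 0.89 to 0.96, were found for CG7720, frm, CG5639 and wts, the Hippo pathway kinase gene, which had 22.2, 54.1 and 85.1 in RasV12 and 66.0, 83.9 and 36 in sSpi discs.

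The third sSpi array was the lowest of the 3 in 42 members (52.5%), against 31.9% of all probe sets. The median of sSpi replicate 3 minus the mean of sSpi replicates 1 and 2 was -0.19 over the members and 0.01 over all. It was lowest in 15 of the 22 members whose sSpi mean was nearer to or below RasV12 replicate 1, where the median was -0.25, and in 27 of the 58 others, where it was -0.14. Of the 38 probe sets at least 1 below on sSpi replicate 3, 1 is a member, the brighter jeb probe set. Across the 80 members, the gap on RasV12 replicate 1 and the deviation of sSpi replicate 3 had a Pearson's r of 0.14, and across all probe sets 0.11. Probe sets share their array, and these values are descriptions.

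Many member genes are represented on the array by more than 1 probe set, and 18 of them have another, non-member probe set past the filter. Of 31 such probe sets, 22 had a gap within 0.5 of 0 and 9 a gap of -0.5 or lower, with a median of -0.28 and a range from -0.99 to 0.33. In 17 of the 18 genes the brightest probe set is not a member, the exception being the glycosyltransferase gene Pgant9. For Prosap the second probe set had 90.4, 97.7 and 120 in RasV12 and 104, 104 and 105 in sSpi discs, with a gap of -0.22. For gukh the brightest had 171, 163 and 160 in RasV12 and 290, 272 and 253 in sSpi discs, with a gap of 0.08, so the genotypes did not overlap and RasV12 replicate 1 was the highest RasV12 array. The teneurin gene Ten-a has 4 other probe sets past the filter, with gaps from -0.26 to 0.15, beside a member at -1.12. The 9 gaps of -0.5 or lower were those of Dscam2 (-0.99), Sxl (-0.91), tutl (-0.83 and -0.50), Pgant9 (-0.78 and -0.66), CG34347 (-0.72), cv-c (-0.68) and side-V (-0.67).

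**Figure D5:**
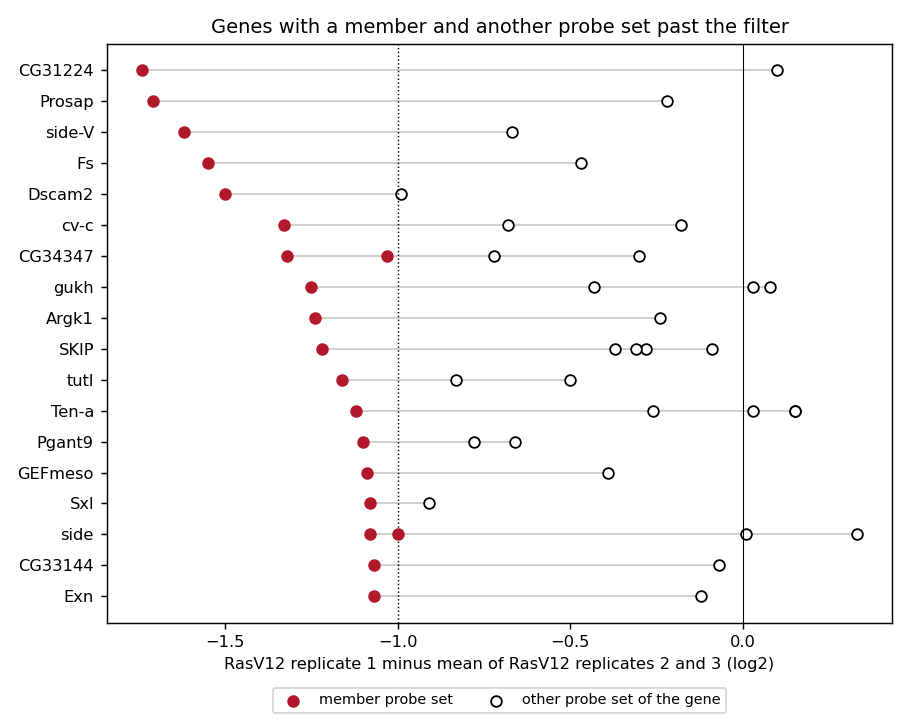
Gap of RasV12 replicate 1 to the mean of RasV12 replicates 2 and 3 (x axis, log2) for member probe sets, filled, and other probe sets past the filter, open, of the same gene (y axis). Open points lie between -0.99 and 0.33, right of the margin at -1, marked by the dotted line.

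The fit of RasV12 against sSpi over all 6 arrays called 219 of the 8385 probe sets (2.61%) with limma at an adjusted p of 0.05, and 1 member among them. That member, the unnamed probe set 151748_at, had 53.6, 139 and 117 in RasV12 and 35.3, 34.8 and 21.0 in sSpi discs, a difference of 1.30 ± 0.28 (log2, SE). At an unadjusted p under 0.05 there were 20 of the 80 members, and 1275 of all 8385 probe sets (15.2%). The wide spread within RasV12 by which members were chosen enters the error of this fit, so the count is a description. Of the members, 33 had a higher mean in RasV12 and 47 a lower one.

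In the fit without RasV12 replicate 1, with 2 arrays against 3, 17 members (21.2%) were called higher in RasV12, against 2.41% of all, and 4 (5.00%) were called lower, against 1.99%. The rule chose members with high values on the remaining RasV12 arrays, so these counts and the differences of single members are descriptions, given with no p. Among those higher in RasV12, SP1029 differed by 1.70 ± 0.13 (log2, SE), against 1.16 ± 0.38 with all arrays. Hr4 differed by 1.44 ± 0.25, against 0.92 ± 0.40 with all arrays, and dsx by 1.07 ± 0.19, against 0.60 ± 0.35. The 4 called lower were gukh, side-V and both CG34347 probe sets, and for gukh the difference was -0.78 ± 0.13 without that array and -1.20 ± 0.30 with it. Leaving out that array enlarged the differences of SP1029, Hr4 and dsx, reduced that of gukh, and narrowed the errors of all of them. Members were picked for a low value on that array, so the directions of these changes follow from the choice. The choice bears on the narrower errors as well.

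Of 24 gene lists, 6 held a member and 18 held none. Among the 18, the list of salivary gland partner genes matched no probe set with 1 symbol, so it could hold no member. Of the 254 different genes of the lists past the filter, 8 (3.15%) were member genes, as were 70 (1.03%) of all 6772 named genes past the filter; the lists were written with earlier results of these data known. Beside the 3 ecdysone response genes, there was 1 among 27 genes past the filter for larval epidermis and cuticle (Cht5), 1 of 12 for neurons and synapses (brp), 1 of 17 for photoreceptors (chp), 1 of 18 for cytochrome P450 and conjugation enzymes (Cyp4g1) and 1 of 12 for transporters and channels (Mdr49). The summed signal of the neuron list was 1836, 2080 and 2083 on the RasV12 arrays and 2125, 2254 and 2274 on the sSpi arrays, and 4 of its 19 genes were at or under a signal of 16 on all arrays. That of the photoreceptor list was 2711, 3086 and 3023 in RasV12 and 2536, 2478 and 2519 in sSpi discs, with 4 of 25 genes at or under 16 on all arrays. RasV12 replicate 1 was thus the lowest RasV12 array for both sums, by less than the members' gap. The pan-neuronal marker elav had 103, 96.9 and 93 in RasV12 and 102, 106 and 109 in sSpi discs, and the eye transcription factor gene gl had 285, 334 and 309 in RasV12 and 306, 290 and 319 in sSpi discs. Both defining markers were present on all 6 arrays, and RasV12 replicate 1 was the highest RasV12 array for elav and the lowest for gl.

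The marker lists of glia, of peripodial and disc margin cells, and of tissues that could adhere to dissected discs held no member. Few of their genes passed the filter, from 3 for fat body and larval serum to 14 for larval muscle. Of all named genes past the filter 1.03% were member genes, so a lack of members in such short lists says little. The summed signal of 6 fat body and larval serum genes was 192, 192 and 182 on the RasV12 arrays and 326, 187 and 173 on the sSpi arrays. That of 15 hemocyte genes was 2655, 2293 and 2303 in RasV12 and 2788, 2890 and 2692 in sSpi discs, that of 22 larval muscle genes 5576, 5498 and 5020 in RasV12 and 5161, 5469 and 6213 in sSpi discs, and that of 16 glial genes 3499, 3706 and 3773 in RasV12 and 4053, 3762 and 4144 in sSpi discs. None of these sums was lowest on RasV12 replicate 1 except the glial one. The sum of 10 tracheal genes was 4166, 5164 and 5584 in RasV12 and 4135, 4613 and 4306 in sSpi discs, and that of 8 peripodial and disc margin genes 681, 851 and 811 in RasV12 and 755, 730 and 671 in sSpi discs. In these last sums RasV12 replicate 1 lay among the sSpi arrays and below RasV12 replicates 2 and 3, and their part in the members' levels was not tested.

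Few members lie close to each other in the genome. In the gene order of assembly Release 6 plus ISO1 MT, CG9312 and Cht5 are next to each other, and Fs and Trpm, and wts and CG15544, each have 2 genes between them. In both genes of the adjacent pair, sSpi replicate 3 was the lowest sSpi array.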

How the data were processed

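Per the labels' protocols, 5 ug of total RNA per sample went into biotin labelling on 1-colour Affymetrix arrays. The authors deposited linear intensities, 1 signal per probe set and array. The tool was MAS5, per the submitters' processing notes; version and genome build are not given in the sources used here. Of 14010 probe sets, 44 controls were left out, and 0 columns were not used. Names were taken from GEO's platform annotation. Of 13966 probe sets, 12443 had 1 symbol, 327 several and 1196 none; 12394 symbols were updated with the genes of Release 6 plus ISO1 MT, an assembly consulted for names and gene order only.

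Levels were taken as log2(signal + 16), which shrinks the folds of dim probe sets, for the 8385 probe sets with a mean signal of at least 23.4. RasV12 minus sSpi was fitted with limma 3.58.1 (lmFit and eBayes with a trend, two-sided, Benjamini-Hochberg over all 8385, threshold 0.05) under R 4.3.3, and the fit was tested on simulated data. No p-value was computed over the members. Values are signals per array, and precision is limited by having 3 arrays a genotype. Each log2 difference from the fit is given with its SE, and gaps, medians and other differences are given without one. The members, the gene lists and the tests were chosen with earlier results of these data known. The groups by signal strength and the other probe sets of member genes were added after their values were seen. So were the sidestep family and the single marker genes. Named genes are those with the 30 largest gaps, the 3 on each side of the margin, genes with more than 1 member, list members, the 8 highest, 8 lowest and 8 widest in sSpi, called members and neighbours; the rest of the members are named once to account for all. The titles number the replicates 1 to 3 in both genotypes, but arrays with the same number did not deviate together (r = -0.105, -0.037 and -0.135), so they were not treated as pairs. One list of salivary gland partner genes matched no probe set with 1 symbol. Alternatives were pseudocounts of 1 and 64, other signal filters, quantile normalization, median scaling, other margins, 1 probe set per gene, no trend, a replicate block and each array left out in turn. No DNA or protein sequence, gene length or chromosome was used here. Plots used matplotlib 3.10.9 and Python 3.11.15.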

Additional observations from a re-analysis of the deposited data

How the results depend on the processing

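The number of members depended on the choice of scale and margin. It was 167 with a pseudocount of 1, 7 with 64, 35 in the upper 40% of probe sets by signal, 190 at a gap of 0.75 and 17 at 1.5; without one of the RasV12 arrays compared with it was 81 to 108. The members with all 3 sSpi arrays above RasV12 replicate 1 numbered 146, 4, 26, 158 and 14 in these 5 settings in that order, and those with the sSpi mean below RasV12 replicates 2 and 3 numbered 108, 7, 25, 131 and 14. The median of sSpi minus RasV12 replicate 1 was 1.26, 0.34, 0.63, 0.79 and 1.32, and also 0.83 with no signal filter and 0.85 with 1 probe set per gene; leaving out an array gave 0.82 to 1.01. The median of sSpi minus RasV12 replicates 2 and 3 was -0.16, -1.15, -0.50, -0.16 and -0.35, -0.35 with no filter, and -0.38 to -0.24 leaving out an array. With all of these choices the first of these medians stayed above 0 and the second below 0. Members were chosen by a low RasV12 replicate 1 against replicates 2 and 3, so the choice bears on both signs. Quantile normalization gave 82 members and median scaling 85. Called members were counted among the 80 of the main setting, not among the members of each setting. Their count was 1 with all arrays and 3 with a pseudocount of 64, where 222 probe sets were called in all. It was 0 without the trend, where 188 were called, and 0 with no signal filter, where 138 were called. Leaving out an array gave 0 to 21 called members and 86 to 369 called probe sets, against 219 with all arrays: 369 probe sets and 21 members without RasV12 replicate 1, 105 and 0 without RasV12 replicate 2, 149 and 3 without RasV12 replicate 3, and 98, 86 and 133 probe sets with 0 members without sSpi replicates 1, 2 and 3. With the replicate block, 3 members and 159 probe sets were called. Other margins and filters admit more or fewer probe sets by construction; for the other settings the cause was not tested. Signals near or under 16 on RasV12 replicate 1 limit the gap that dim members can show, and 3 arrays a genotype limit the tests.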

Other observations

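In the other direction, 24 probe sets were at least 1 (log2) higher on RasV12 replicate 1 than the mean of RasV12 replicates 2 and 3. They include Nplp2, a neuropeptide-like precursor gene, with 357, 117 and 85.9 in RasV12 and 138, 97.4 and 133 in sSpi discs. The odorant-binding protein gene Obp99a had 2410, 1060 and 872 in RasV12 and 831, 1310 and 1450 in sSpi discs. The glutathione transferase genes GstD9 and GstE1 had 126 and 296 on RasV12 replicate 1, against 40.9 to 47.7 and 129 to 147 on the other RasV12 arrays, and Hml, a hemocyte gene, had 131, 69.1 and 42.5 in RasV12 and 92.9, 73.8 and 116 in sSpi discs. These genes were picked from the 24 after their values were seen.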
